A study of Homo sapiens with 6 samples.

Results

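The 10 genes MPO, ELANE, PRTN3, AZU1, CTSG, LYZ, CST7, SRGN, PRG2 and RNASE2 encode enzymes, inhibitors and packing proteins of myeloid granules, and they were taken by symbol from a table of 29810 genes. The table holds mRNA-seq of Kasumi-1 cells, an established line of acute myeloid leukemia with the t(8;21) translocation that makes the RUNX1-RUNX1T1 fusion. One group of 3 libraries came from control cells and the other group of 3 from cells incubated for 48 h with I3 at 0.25 μM, a histone deacetylase (HDAC) inhibitor. The comparison asks how the transcripts of granule proteins stood after I3, which the study examined as an inducer of differentiation. Both groups are the same unmodified line, so every value describes 1 leukemic cell line and not normal bone marrow. The level of a gene is given in FPKM, the fragments counted for it scaled to the length of its exons and to the depth of the library, which allows genes of different length to be set side by side.

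Primary (azurophil) granules are the first granules that a neutrophil precursor builds, at the promyelocyte stage, when the transcription of their proteins is at its peak. They carry myeloperoxidase, a family of related serine proteases and lysozyme, packed on the proteoglycan serglycin, and they fuse with phagosomes to kill ingested microbes. Transcription of these genes is known to fall as the cell goes on to the myelocyte stage and begins to make secondary granule proteins, and factors of the RUNX, C/EBP, PU.1 and MYB families are known regulators of several of them. PRG2 and RNASE2 differ from the rest in that their products are best known from eosinophil granules, and lysozyme is also found in later granule types and in monocytes.

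The 6 libraries held 17500321 to 18193372 reads on genes, rebuilt from the FPKM values and exon lengths. The marker genes fitted a myeloid progenitor: the stem cell factor receptor gene KIT stood at 204 ± 8.62 FPKM in control cells and 210 ± 13.0 FPKM after I3 (SD, n = 3), CD34 at 32.9 ± 3.63 and 34.3 ± 4.85 FPKM, and the 5 progenitor markers together at 277 to 306 FPKM in every library. Of the 3 mature neutrophil markers analysed, the granulocyte colony-stimulating factor receptor gene CSF3R was present at 89.2 ± 12.7 and 88.5 ± 6.38 FPKM. The others were far lower, CXCR2 at 0.923 ± 0.111 and 0.794 ± 0.0699 FPKM and S100A12 at means of 0 and 0.0354 FPKM. Of the 4 monocyte markers analysed, S100A8 was at 0 FPKM in every library and CD14 at a mean of 0.0101 FPKM in control cells and 0 after I3, but CSF1R, the macrophage colony-stimulating factor receptor gene, was present at 4.79 ± 0.302 and 4.89 ± 0.963 FPKM and S100A9 at 3.47 ± 1.24 and 2.97 ± 1.64 FPKM. The 4 together summed to 7.01 to 8.93 FPKM per library. The 5 eosinophil markers analysed summed to at most 0.376 FPKM in any library, and CLC, the defining eosinophil gene of Charcot-Leyden crystals, was at 0 in all 6.

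Granule protein transcripts were among the most abundant in the cells, and their levels spread over a wide range. MPO ranked 1 of all genes by mean FPKM, PRTN3 ranked 3, ELANE 6, AZU1 40 and CTSG 165. SRGN followed at rank 766 and RNASE2 at 966, while LYZ at 4799 and CST7 at 8974 were minor transcripts and PRG2 was almost without reads. The 10 genes took 4.39%, 3.79% and 4.43% of the reads in control libraries 1, 2 and 3, and 4.41%, 3.78% and 4.16% in I3 libraries 1, 2 and 3. The share was 4.20% ± 0.361 in control cells and 4.12% ± 0.314 after I3 (SD, n = 3), and the groups overlapped. Myeloperoxidase alone supplied 2.73% to 3.04% of the reads of a library.

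**Figure D1:**
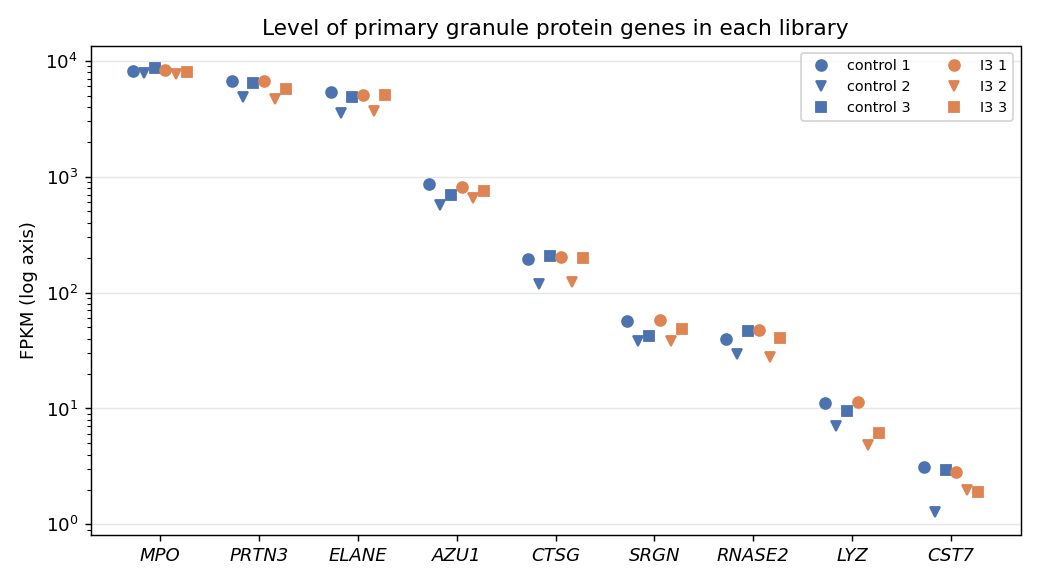
FPKM of 9 granule protein genes in each library (PRG2, at 0 in 5 of 6 libraries, is left out), on a logarithmic axis, with control libraries in blue, I3 libraries in orange and genes ordered by mean level. The genes run from a mean of 8106 FPKM for MPO down to 2.34 FPKM for CST7, and the points of both groups overlap for every gene.

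The order of the levels was nearly the same in every library. Of the 9 pairs of neighbors in the order, 8 kept it in all 6 libraries. The order was read from these same libraries, so it is a description and no p is given. SRGN and RNASE2 were the pair that did not keep its order: SRGN was higher in 5 of 6 libraries and lower in control 3, with a mean log2 difference of 0.28 ± 0.24 (SD, n = 6). PRTN3 exceeded ELANE by 0.35 ± 0.10 on the log2 scale, so that the ratio of ELANE to PRTN3 lay between 0.727 and 0.887. The step from ELANE to AZU1 was wider, 2.65 ± 0.11. AZU1 and CTSG each have a long second transcript that lengthens the exon total used for FPKM. Per kilobase of the principal transcript the mean levels were 1422 for AZU1 and 269.7 for CTSG in place of 724 and 174 FPKM, and their ranks within the 10 genes did not change.

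Myeloperoxidase is the heme enzyme that makes hypochlorous acid from hydrogen peroxide and chloride. MPO (ENSG00000005381, chr17:58269856-58280935, minus strand, hg38) stood at 8191, 7789 and 8612 FPKM in control libraries 1, 2 and 3 and at 8324, 7740.2 and 7979.6 FPKM in I3 libraries 1, 2 and 3. The groups overlapped, with control 3 the highest and both libraries numbered 2 the lowest. The means were 8197 ± 412 and 8015 ± 294 FPKM (SD, n = 3), and the log2 difference, I3 minus control, was -0.03 with a 95% interval from -0.18 to 0.11 (limma, Benjamini-Hochberg adjusted p = 0.998). This was the narrowest interval of the 9 genes tested and lay inside the fold threshold of 0.58 used for a call.

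Neutrophil elastase, proteinase 3 and azurocidin are products of 1 gene cluster on chromosome 19, and cathepsin G is a relative encoded on chromosome 14. Elastase and proteinase 3 are active serine proteases of closely similar fold, cathepsin G cuts with a chymotrypsin-like preference, and azurocidin has lost its catalytic residues and acts as an antimicrobial and chemotactic protein. PRTN3 (ENSG00000196415, chr19:840960-848175, plus strand) was measured at 6648, 4838 and 6430.3 FPKM in control libraries and 6674, 4651 and 5698 FPKM in I3 libraries. ELANE (ENSG00000197561, chr19:851014-856247, plus strand) was measured at 5319, 3516 and 4832 FPKM in control libraries and 5065, 3680.0 and 5053 FPKM in I3 libraries. For both genes control 2 and I3 2 were well below the other 4 libraries, and the groups overlapped. AZU1 (ENSG00000172232, chr19:825097-832018, plus strand) gave 856, 566 and 698 FPKM in control libraries and 814, 657 and 753 FPKM in I3 libraries. CTSG (ENSG00000100448, chr14:24573522-24576260, minus strand) gave 195, 118 and 205 FPKM in control libraries and 203, 124 and 198 FPKM in I3 libraries. The same libraries were lowest for these genes too, and CTSG showed the clearest gap, with 4 libraries at 195 FPKM or more and both libraries numbered 2 at 124 FPKM or less.

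None of the serine protease family differed between groups by more than the spread between libraries. The log2 differences were -0.08 for PRTN3 (95% interval -0.46 to 0.31), 0.02 for ELANE (-0.41 to 0.45), 0.08 for AZU1 (-0.27 to 0.44) and 0.03 for CTSG (-0.58 to 0.63), with adjusted p between 0.998 and 0.999 (limma, Benjamini-Hochberg). The intervals of PRTN3, ELANE and AZU1 lay inside the fold threshold. That of CTSG reached past it on the higher side, so a change of that size in CTSG was not excluded. An interval inside the threshold does not mean that a change of that size would have been called. The smallest adjusted p over all tested genes was 0.309 (limma, Benjamini-Hochberg). Without control 2 the ELANE difference was -0.16 and without I3 2 it was 0.17, and for CTSG it was -0.23 and 0.26, so the sign of these small differences rested on 1 library.

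Lysozyme cuts the peptidoglycan of bacterial walls. LYZ (ENSG00000090382, chr12:69348341-69354234, plus strand) stood at 11.04, 7.07 and 9.46 FPKM in control libraries and 11.4, 4.84 and 6.20 FPKM in I3 libraries. The groups overlapped, since I3 1 was the highest library of all, while I3 2 and I3 3 were the 2 lowest. LYZ had the largest difference of the 9 genes tested, -0.34 on the log2 scale (95% interval -1.03 to 0.35). It did not pass the test (limma with Benjamini-Hochberg adjusted p = 0.998, and exact permutation p = 0.5 on log2(FPKM + 0.5)). Without I3 1 the LYZ difference was -0.67 (limma with Benjamini-Hochberg adjusted p = 0.722) and without I3 2 it was -0.10. The antisense gene AC020656.1 overlaps an exon of LYZ, and no source used here states whether reads were counted by strand, so reads of the pair could not be told apart.

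Cystatin F, the product of CST7, inhibits cysteine cathepsins, among them cathepsin C, the protease that activates the granule serine proteases. CST7 (ENSG00000077984, chr20:24949230-24959928, plus strand) rested on 120 reads over the 3 control libraries and 112 over the 3 I3 libraries. Its level was 3.10, 1.27 and 2.95 FPKM in control libraries and 2.84, 1.99 and 1.89 FPKM in I3 libraries. The groups overlapped and the log2 difference was -0.05 (95% interval -0.71 to 0.61). Serglycin carries the chondroitin sulfate chains on which the positively charged granule proteins are packed. SRGN (ENSG00000122862, chr10:69088106-69104811, plus strand) was at 56.5, 38.4 and 41.8 FPKM in control libraries and 57.8, 38.0 and 48.0 FPKM in I3 libraries. Library 1 of each group was the highest, and the log2 difference was 0.07 (95% interval -0.36 to 0.50).

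RNASE2 encodes eosinophil-derived neurotoxin, a secreted ribonuclease. RNASE2 (ENSG00000169385, chr14:20955452-20956436, plus strand) was at 39.7, 29.5 and 46.8 FPKM in control libraries and 47.4, 27.8 and 40.3 FPKM in I3 libraries. The groups overlapped and the log2 difference was -0.02 (95% interval -0.54 to 0.51). Its close relative RNASE3 was far lower, at 1.36 ± 0.201 and 1.86 ± 0.508 FPKM, and 23 of the 706 stretches of 50 bases in RNASE2 also occur in other genes, RNASE3 first among them. PRG2, the gene of eosinophil major basic protein (ENSG00000186652, chr11:57386794-57390657, minus strand), was listed at 0 in all control libraries and in I3 2 and I3 3, and I3 1 held 1 read, 0.0305 FPKM. A count of 0 over the 3 control libraries allows a level of up to 0.0308 FPKM, counting error only, so no difference was detectable. Of the stretches of 50 bases in PRG2, 38.7% are shared with the readthrough gene AP000781.2, which further limits what its count can show. Among the other eosinophil granule genes, RNASE3 passed the minimum level on 52 reads over the control libraries and 72 over the I3 libraries, while PRG3 and EPX had means of at most 0.144 FPKM in either group.

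**Figure D2:**
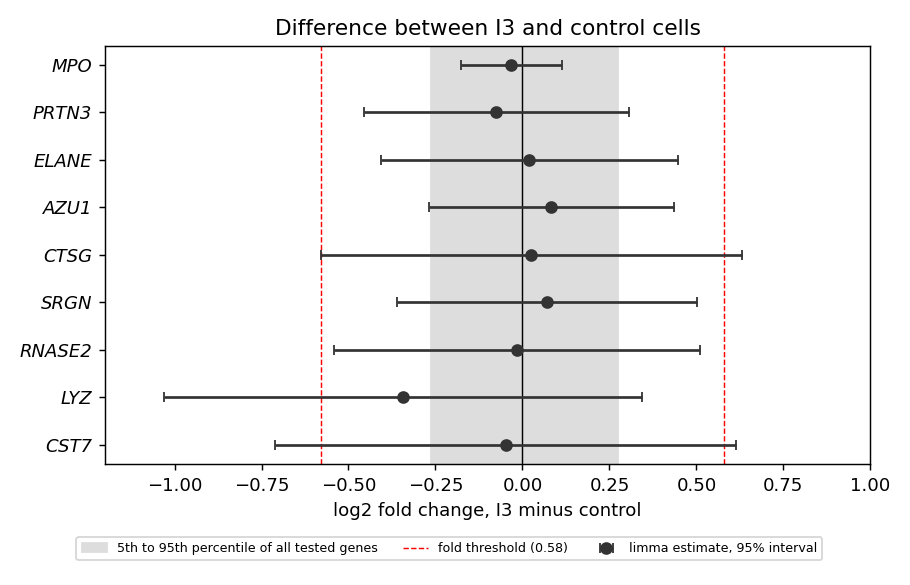
Log2 difference, I3 minus control, of the 9 granule protein genes that passed the minimum level, with 95% limma intervals, the fold threshold (dashed) and the range that holds the 5th to 95th percentile of all tested genes (gray). All 9 intervals cross 0, and LYZ at -0.34 is the only estimate outside the gray range.

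Set against the whole table, the granule genes did not stand out. Of 12960 genes with a mean of at least 0.5 FPKM, 0% were called at an adjusted p under 0.05 and a log2 difference of at least 0.58 (limma, Benjamini-Hochberg), and 0 of the 9 granule genes tested were called. At an unadjusted p under 0.05, 639 genes or 4.93% passed, and 0 of the 9. With the fold threshold added, 0.756% of all tested genes were higher and 0.648% lower, and again 0 of the 9. The groups did not overlap for 9.7% of all tested genes, 5.06% with all I3 libraries above and 4.64% with all below, and for 0 of the 9. The median log2 difference was -0.02 over the 9 genes and 0.01 over all tested genes, and 4 of the 9 were positive. PRG2 was the 1 gene of the 10 below the minimum level, and the means of the other 9 were above it in both groups. The exact permutation test with 3 libraries against 3 cannot go below p = 0.1.

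The variation that the granule genes did show ran between libraries within a group. Control 2 and I3 2 were the lowest pair of the 6 libraries for 7 of the 9 genes tested, namely MPO, ELANE, PRTN3, AZU1, CTSG, SRGN and RNASE2, while 9.56% of all tested genes (1239 genes) had that pair lowest and 13% had it highest. Each other pair of 1 control and 1 I3 library was lowest for 3.06% (control 1 and I3 2) to 10.1% (control 1 and I3 1) of all tested genes. Over the whole table the pair numbered 2 was therefore not unusual, and each other pair was lowest for at most 1 of the 9. The pair was singled out after the values were seen, so no test is given. The mean of these 2 libraries minus that of the other 4 was, on the log2 scale, -0.72 for CTSG, -0.62 for LYZ, -0.59 for RNASE2 and CST7, -0.49 for ELANE, -0.42 for PRTN3, -0.40 for SRGN, -0.35 for AZU1 and -0.09 for MPO. MPO thus moved least of all, and the ratio of MPO to ELANE rose from 1.54 to 1.78 in 4 libraries to 2.22 in control 2 and 2.10 in I3 2. Of all tested genes, 0.957% had a difference below that of CTSG and 2.18% below that of ELANE, against 28.1% below that of MPO.

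**Figure D3:**
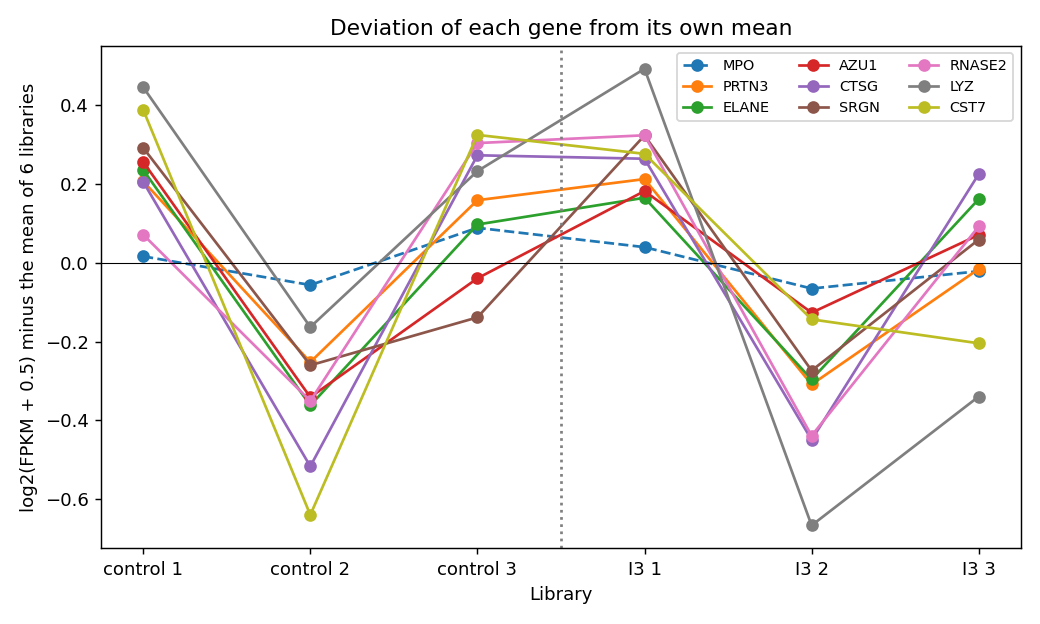
Level of 9 granule protein genes in each library, as log2(FPKM + 0.5) minus the gene's mean over all 6 libraries. Control 2 and I3 2 lie at the bottom for 7 of the 9 genes, and the spread is small for MPO and wide for CTSG, LYZ and CST7.

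Counting error was far below this spread for the abundant genes. Over the control libraries ELANE had a coefficient of variation of 20.5% where its reads allow 0.348% from counting alone, and MPO had 5.02% against 0.140%. For CST7 it was 41.7% against 15.8%. Control 2 and I3 2 did not differ in depth from the rest, at 17798678 and 17794814 reads. The Spearman correlation of a library's deviation with the GC content of the genes was 0.45 in control 2 and 0.26 in I3 2, but also 0.34 in control 3, and negative in the other 3 (control 1 -0.31, I3 1 -0.23, I3 3 -0.45). After the GC trend was removed from each library 8 of the 9 genes had control 2 and I3 2 lowest, and after quantile normalization 5 of the 9. Quantile normalization gives genes of equal rank the same value in every library, so a gene at a steady rank cannot be lowest anywhere. The log2 differences of MPO and PRTN3, I3 minus control, were 0 in that setting, so its count does not decide on the pattern. The labels name no batch or culture that joins the libraries numbered 2, and the part of a batch or culture in the pattern was not tested.

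The cluster on chromosome 19 allowed the pattern to be followed along the chromosome. AZU1, PRTN3 and ELANE lie head to tail within 31.2 kb, and the next gene beyond ELANE is CFD, which encodes complement factor D, also a serine protease stored in granules. CFD gave 617, 335 and 411 FPKM for control 1, 2 and 3 and 517, 374 and 412 FPKM for I3 1, 2 and 3, and control 2 and I3 2 were again lowest. PRSS57, a serine protease of primary granules whose gene lies within 200 kb before AZU1, also had this pair lowest, at 865 and 862 FPKM against 929.6 to 1021 in the other 4. The genes that flank the cluster did not: PTBP1, a splicing regulator, and MED16, a subunit of the Mediator complex, had control 2 and I3 2 as the highest pair. PLPPR3, directly before AZU1, was at 154.8 ± 3.76 FPKM in control cells and 123 ± 24.7 after I3, with all I3 libraries below all control libraries, but it did not pass the test (log2 difference -0.35, unadjusted p = 0.034, limma with Benjamini-Hochberg adjusted p = 0.998).

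**Figure D4:**
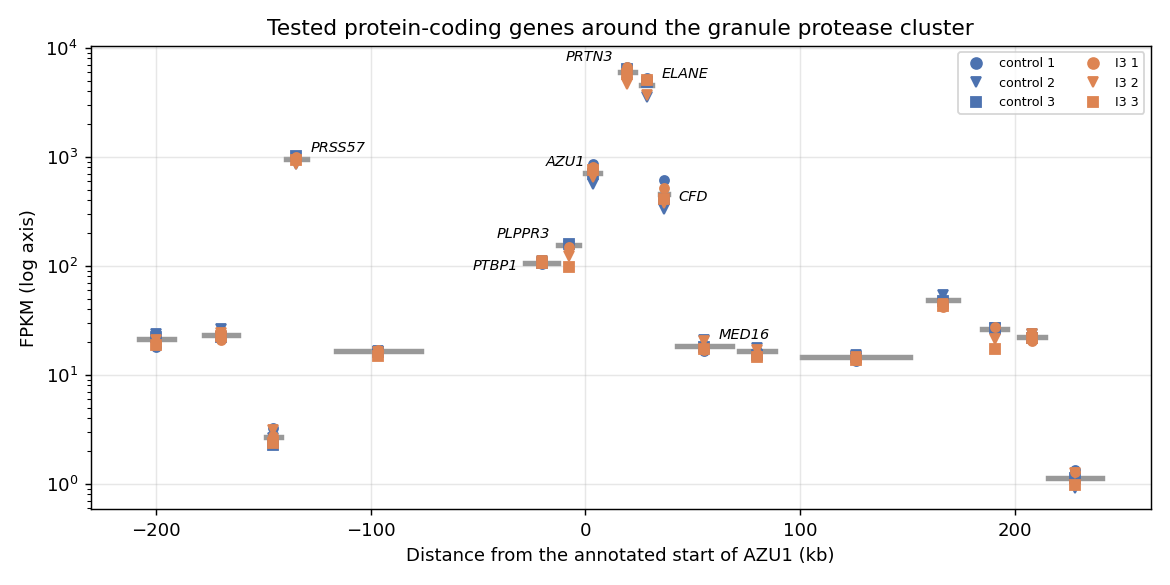
FPKM in each library, on a logarithmic axis, of the tested protein-coding genes within 200 kb of the AZU1, PRTN3 and ELANE cluster, plotted by distance from the start of AZU1 in kb, with gray bars for the length of each gene. The cluster genes, CFD and PRSS57 stand above most of the region, and control 2 and I3 2 (triangles) are their lowest libraries.

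The neighbors of the granule genes on other chromosomes covered a range of levels. LPO, the lactoperoxidase gene next to MPO, stood at 8.33 ± 0.438 FPKM in control cells and 9.08 ± 0.822 after I3. CMA1, the mast cell chymase gene next to CTSG, had means of 0.121 and 0.0999 FPKM. PRG3, next to PRG2, was as near to 0 as PRG2 itself, with means of 0.0217 and 0 FPKM. Beside SRGN, VPS26A was at 21.7 ± 4.46 and 24.0 ± 3.26 FPKM, and beside LYZ, YEATS4 was at 17.9 ± 3.66 and 17.8 ± 1.20 FPKM. None of the neighbors that were tested passed the test.

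Promoter sequences (RefSeq, GRCh38.p14) are shown for AZU1, PRTN3, CTSG and RNASE2, the 4 granule genes matched in the promoter table used here, so that the letters searched for known regulators can be seen in place. Each run ends at the last base before an annotated exon, and capitals mark matches to C/EBP (TTNNGNAA) or PU.1 (GAGGAA) letters on either strand. The windows are chr19:827587-827835 (plus strand, within an intron of a longer AZU1 transcript), chr19:840749-840959 (plus), chr14:24576261-24576500 (minus) and chr14:20955237-20955451 (plus).
AZU1: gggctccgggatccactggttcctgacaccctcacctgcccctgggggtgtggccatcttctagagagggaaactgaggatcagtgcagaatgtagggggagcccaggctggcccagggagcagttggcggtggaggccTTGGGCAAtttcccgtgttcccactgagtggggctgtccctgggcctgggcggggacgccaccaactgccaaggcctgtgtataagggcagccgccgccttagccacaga
PRTN3: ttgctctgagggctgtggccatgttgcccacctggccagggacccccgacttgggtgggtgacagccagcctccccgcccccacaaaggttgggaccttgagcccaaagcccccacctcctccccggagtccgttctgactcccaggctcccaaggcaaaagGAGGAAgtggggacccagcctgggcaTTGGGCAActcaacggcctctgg
CTSG: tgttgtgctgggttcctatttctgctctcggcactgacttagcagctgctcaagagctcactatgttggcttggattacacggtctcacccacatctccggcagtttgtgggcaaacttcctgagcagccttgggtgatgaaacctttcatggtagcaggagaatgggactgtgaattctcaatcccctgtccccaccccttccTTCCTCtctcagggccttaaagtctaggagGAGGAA
RNASE2: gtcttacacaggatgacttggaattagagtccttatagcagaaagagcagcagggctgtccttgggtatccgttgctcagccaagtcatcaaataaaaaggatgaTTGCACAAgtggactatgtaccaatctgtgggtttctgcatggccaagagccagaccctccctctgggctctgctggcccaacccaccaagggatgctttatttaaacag

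AZU1 and PRTN3 hold the same 8 letters, TTGGGCAA, at positions -111 to -104 and -62 to -55 from their starts. Positions here count from the annotated start of the promoter source, which lies past the last printed letter of each run. The runs were cut where an annotated exon begins, so a position cannot be counted back from that letter. PRTN3 holds GAGGAA at -88 to -83, CTSG holds it at -16 to -11 and, as TTCCTC, on the other strand at -46 to -41, and RNASE2 holds TTGCACAA at -145 to -138. The C/EBP letters occur in 33.2% of all 35116 promoters within 250 bases before the start and the PU.1 letters in 23.6%. The RUNX letters TGTGGT, or ACCACA on the other strand, occur in 10.98% of all promoters and in none of these windows. These matches describe the letters of the windows only.

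The genes of other primary granule proteins also gave no call. Of a list of 12 further primary and eosinophil granule genes, 8 were analysed, 5 passed the minimum level and 0 were called, with a median log2 difference of -0.01. PRSS57 stood at 949 ± 78.6 FPKM in control cells and 929.6 ± 67.4 after I3, and CD63, a granule membrane tetraspanin, at 66.7 ± 3.45 and 65.1 ± 3.47 FPKM. Control 2 and I3 2 were the lowest pair for 4 of the 5, namely PRSS57, BPI, RNASE3 and CD63, against 9.56% of all tested genes. The defensin genes DEFA1, DEFA1B, DEFA3 and DEFA4 were not analysed here. Secondary and tertiary granule genes were nearly silent: of 13 analysed only CYBA passed the minimum, at 102 ± 1.53 and 98.6 ± 4.77 FPKM, and CYBA encodes a subunit of the NADPH oxidase that is not limited to granulocytes. The lactoferrin gene LTF and the genes CAMP and MMP8 were not analysed here.

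The machinery that folds, trims and sorts granule proteins was expressed in all libraries, and none of it passed the test. All 16 genes of the list were analysed, 15 were tested and 0 were called, with a median log2 difference of 0.01. Calreticulin and calnexin, the chaperones that hold newly made myeloperoxidase, stood at 1378 ± 77.7 and 1413 ± 51.7 FPKM for CALR and 238 ± 25.9 and 247 ± 27.7 FPKM for CANX. Cathepsin C removes the propeptide of the serine proteases, and its gene CTSC stood at 26.5 ± 0.546 and 26.7 ± 0.731 FPKM. VPS13B was the gene of this list with all I3 libraries above all control libraries, at 7.40 ± 0.285 and 8.06 ± 0.171 FPKM (unadjusted p = 0.0976, limma with Benjamini-Hochberg adjusted p = 0.998). Of the protease inhibitors 8 were tested and 0 called. SERPINB1, an inhibitor of elastase, proteinase 3 and cathepsin G in the cytosol, stood at 238 ± 30.8 and 241 ± 24.4 FPKM. It had control 2 and I3 2 lowest, as did SERPINA1, SLPI and CSTA, while CST3 had this pair highest. The pair was lowest for 5 and highest for 2 of the 15 folding and sorting genes tested. For heme synthesis it was lowest for 0 and highest for 3 of 8 genes, and for chondroitin sulfate synthesis 2 and 4 of 11. Among 12 transcription factor genes it was lowest for 1 and highest for 2. Over all tested genes 9.56% had it lowest and 13% highest.

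Heme synthesis feeds myeloperoxidase, and chondroitin sulfate synthesis feeds serglycin. Of 8 heme synthesis genes 0 were called. CPOX, coproporphyrinogen oxidase, had all I3 libraries below all control libraries, at 16.3 ± 0.210 FPKM in control cells and 12.9 ± 2.16 after I3 (log2 difference -0.34, unadjusted p = 0.0159, limma with Benjamini-Hochberg adjusted p = 0.853). ALAS1, the first enzyme of the pathway, stood at 65.5 ± 3.83 and 62.8 ± 2.01 FPKM. Of 15 chondroitin sulfate genes 11 were tested and 0 called, and the smallest unadjusted p was that of B3GALT6, a linker enzyme, at 24.5 ± 1.11 and 21.6 ± 1.82 FPKM (log2 difference -0.18, unadjusted p = 0.043, limma with Benjamini-Hochberg adjusted p = 0.998).

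Among 12 transcription factor genes known to act on granule genes, 0 were called. SPI1, the gene of PU.1, stood at 91.5 ± 4.46 and 81.9 ± 16.2 FPKM, GFI1 at 128 ± 3.39 and 124 ± 3.86 FPKM, MYB at 59.1 ± 2.73 and 56.7 ± 4.98 FPKM and RUNX1 at 32.4 ± 1.68 and 34.2 ± 1.01 FPKM. The factor gene with the smallest p was CEBPD, at 36.1, 34.9 and 33.8 FPKM in control libraries and 28.6, 17.8 and 11.8 FPKM in I3 libraries. All I3 libraries were below all control libraries, yet it did not pass the test (log2 difference -0.92, SE 0.27, unadjusted p = 0.0107, limma with Benjamini-Hochberg adjusted p = 0.812). CEBPB, named after its values were seen, was the other factor with groups that did not overlap, at 6.12 ± 0.494 and 3.72 ± 1.29 FPKM (log2 difference -0.69, unadjusted p = 0.0134, limma with Benjamini-Hochberg adjusted p = 0.845), whereas CEBPE, which acts later in granulocytes, stood at 30.8 ± 2.14 and 30.2 ± 1.36 FPKM. CEBPA was at 3.83, 4.46 and 4.15 FPKM in control libraries and 3.67, 4.61 and 1.48 FPKM in I3 libraries. Its groups overlapped, with I3 3 far below the rest (log2 difference -0.41, limma with Benjamini-Hochberg adjusted p = 0.998).

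**Figure D5:**
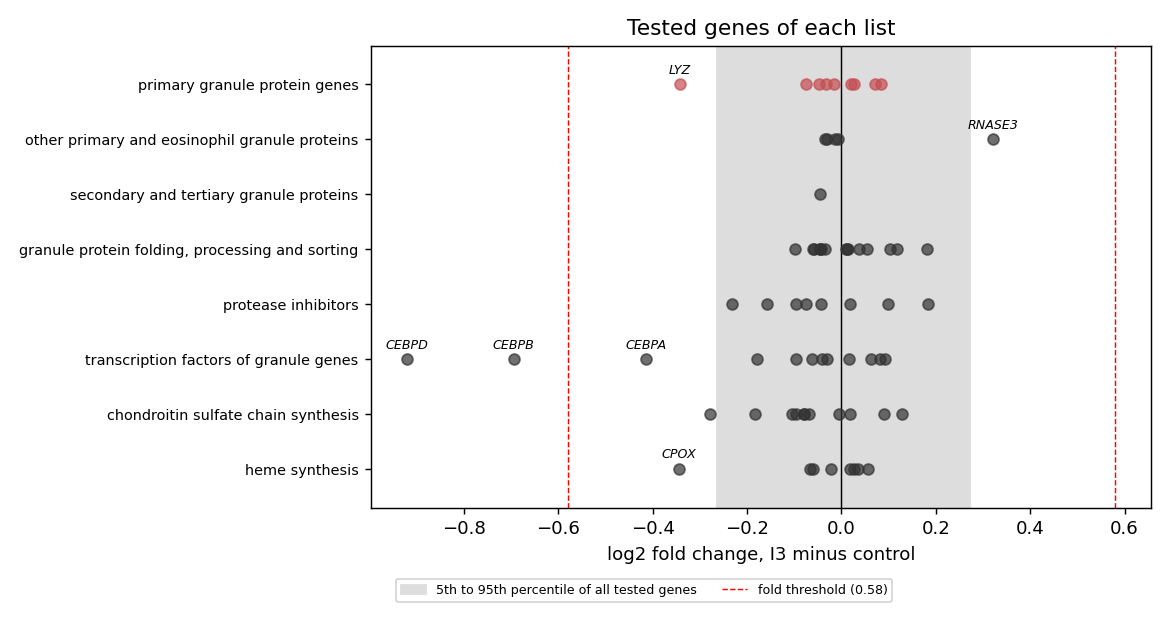
Log2 difference, I3 minus control, of every tested gene of each list, with the fold threshold (dashed) and the range of the 5th to 95th percentile of all tested genes (gray). CEBPD at -0.92 and CEBPB at -0.69 lie beyond the threshold without passing the test, and LYZ at -0.34 is the 1 of the 9 member genes outside the gray range. RNASE3 at 0.32, in the list of other primary and eosinophil granule proteins, lies outside it too, as do CEBPA at -0.41, CPOX at -0.34 and CHSY3 at -0.28.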

How the data were processed

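Kasumi-1 mRNA-seq libraries (3 control, 3 I3) were compared. The authors deposited 1 table of FPKM values. Trimmomatic, HISAT2, Cufflinks and HTSeq and the genome build hg38 are named in the submitters' processing notes. No source used here states their versions, the annotation or the strand setting. The name of the deposited table gives the compound as I13, whereas the labels give I3. The incubation of 48 h is that of the labels, and a caption of the study gives a longer time for the sequenced cells.

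Coordinates and exon lengths came from GENCODE v29, which holds 29703 of the 29810 genes. Gene symbols came from a separate list of gene names, and 23487 genes had a named symbol. The FPKM values, multiplied by exon length and depth, came out as whole reads within 0.1 read for 95.8% of the 26519 genes above 0, which gave the depths. Genes with a mean of at least 0.5 FPKM (12960) were tested as log2(FPKM + 0.5) with limma 3.58.1 in R 4.3.3 (trend in eBayes, unpaired), so a fold change is on the log2(FPKM + 0.5) scale and is understated for low genes. The p-values were adjusted by Benjamini-Hochberg over all tested genes. A gene was called at an adjusted p under 0.05 and a log2 difference of at least 0.58. Exact tests were run in Python 3.11.15 with numpy 2.4.6 and figures drawn in matplotlib 3.10.9. On simulated data with 12960 genes, 86% of 100 genes changed by a log2 of 1 and 91% of 100 genes changed by a log2 of -2 were recovered. The simulation drew every gene independently in each library, without the trends that genes of the real libraries share. The recovered shares therefore need not hold for the real libraries.

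The members and lists were chosen with earlier results of these data known. From each further list the text names up to 4 genes with the highest mean FPKM, the gene with the smallest unadjusted p and any called gene, and the nearest neighbors of the members; others were named after their values were seen. The study's methods say that experiments were done 3 times, but neither they nor the labels tie the libraries to separate cultures, so the p-values measure only the spread between these libraries, which may be technical. Replicate libraries were not copies of each other (chi-square per degree of freedom 4.70 to 15.9 over 11669 genes). Whether the replicate numbers pair the libraries was not settled (correlation of deviations 0.063, 0.15 and -0.024 for numbers 1, 2 and 3). I3 1 and I3 2 correlated best with the control of their own number and I3 3 did not, and the main fit was left unpaired. Intervals and limits from counts cover counting error only. In bulk samples, fewer cells of a type and less RNA per cell cannot be told apart.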

Additional observations from a re-analysis of the deposited data

How the results depend on the processing

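For the granule genes, 0 of the 9 tested were called under any of the alternatives run: another pseudocount or minimum level, TPM, quantile or median-of-ratios values, removal of the GC trend, no trend in eBayes, voom on rebuilt reads, a replicate block and leaving out each library. Over all genes, 0 were called except without a minimum level (3 higher: ENSG00000280836, ATP5MGP8 and MIR548E; 2 lower: MIR5093 and ENSG00000255237; each at a mean under 0.5 FPKM) and in leave-one-out fits, with 0 to 1 higher (SNORD101 without control 1) and 0 to 2 lower (CHCHD10 and EBPL without I3 1, ENSG00000265982 without I3 2). At an unadjusted p under 0.05 and the fold threshold, 98 genes were higher and 84 lower. A pseudocount of 1 gave 62 higher, a minimum of 5 FPKM gave 6 higher and 24 lower, and TPM gave 229 higher and 162 lower. Leave-one-out fits gave 91 to 145 higher and 73 to 132 lower.

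LYZ kept its sign in all 17 alternatives (-0.67 to -0.10). The small differences of other members changed sign in some. Quantile normalization gave -0.043 for ELANE and 0.010 for RNASE2, and removal of the GC trend gave 0.028 for MPO, 0.018 for PRTN3 and -0.0042 for SRGN. Leaving out 1 library gave -0.066 to 0.23 for AZU1, -0.38 to 0.13 for CST7, -0.23 to 0.26 for CTSG, -0.16 to 0.17 for ELANE, -0.068 to 0.0043 for MPO, -0.22 to 0.060 for PRTN3, -0.20 to 0.20 for RNASE2 and -0.072 to 0.24 for SRGN. The cause was not tested. The order of levels held in 8 of 9 pairs, and in 8 to 9 without 1 library.

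With the replicate number as a block 0 genes were called, and 109 higher and 91 lower genes passed the unadjusted p and the fold threshold. The block changed no member's estimate but narrowed the standard errors, that of ELANE from 0.18 to 0.049, and the unadjusted p of LYZ was 0.0532. Not every library correlated best with its own number, since I3 3 did so with control 1 (0.10). The GC and quantile versions of the libraries numbered 2 were added after seeing the data. CST7 and PRG2 had no value at the minimum of 5 FPKM, and PRG2 none in voom. Depth limits CST7 and PRG2 above all.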

Other observations

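Some genes other than the 9 members tested also had control 2 and I3 2 as the lowest or highest pair. Over all tested genes, control 1 and I3 1 were the lowest pair for 10.1%, against 9.56% for control 2 and I3 2. The following were picked after their values were seen, from the largest differences among 6280 protein-coding genes with a mean of at least 5 FPKM. Of these, 682 had control 2 and I3 2 as the lowest pair and 1086 as the highest. The choice did not follow size alone. TNFSF13B (-0.58) and SESN3 (-0.55) had larger log2 differences than CSTA (-0.54), and SCUBE1 and RBM38 (both 0.43) had larger ones than GATA2 (0.39). On the lower side CTSG came first and RNASE2 was the fourth. HLA-B, a class I antigen-presenting molecule, stood at 35.1, 17.9 and 27.5 FPKM in control libraries and 35.5, 19.8 and 28.5 FPKM in I3 libraries. MNDA, the myeloid nuclear differentiation antigen, stood at 17.4, 8.79 and 9.88 FPKM in control libraries and 15.9, 8.05 and 12.1 FPKM in I3 libraries. CSTA, a cystatin that inhibits cysteine cathepsins, was at 20.5, 10.9 and 15.3 FPKM and 20.8, 14.1 and 17.2 FPKM.

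On the higher side the transporter gene SLC12A7 came first, at 4.09, 6.28 and 5.19 FPKM in control libraries and 3.60, 6.55 and 4.67 FPKM in I3 libraries. GATA2, a transcription factor of stem and progenitor cells, was at 9.57, 14.5 and 12.5 FPKM and 10.8, 14.2 and 10.5 FPKM. All of these genes were picked because the same control library and I3 library were lowest or highest together. Their groups therefore had to overlap, and the overlap says nothing about I3. No test was run on the pattern.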
